A study of Mus musculus with 18 samples.

Results

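The genes whose platform symbol begins with Nduf encode most of the nuclear subunits of respiratory complex I and a group of its assembly factors. They were taken by that prefix alone, with the probe of the highest mean over all 18 arrays standing for each gene, which gave 40 genes on 53 probes among 16593 genes with a symbol on the array. The animals were 6-month-old BALB/c nude females. They received astatine-211, an alpha-particle emitter, by tail-vein injection in phosphate-buffered saline, and the thyroids were removed after 24 h. The 5 irradiated groups carried labelled absorbed doses of 0.05, 0.5, 1.4, 11.2 and 32.4 Gy, from injected activities between 0.064 and 42 kBq, and the control group (0 Gy) received an injection with an empty syringe. In all, 21 mice made up the 6 groups. RNA was extracted from the combined thyroids of a group, and each such pool was hybridised to 3 Illumina MouseRef-8 arrays, so n = 3 throughout counts arrays of 1 pool. All p-values therefore measure the technical spread between arrays, and differences between mice or between pools were not measured.

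Complex I is the entry point of electrons from NADH into the mitochondrial respiratory chain. It is L-shaped: an N module in the matrix oxidises NADH, a Q module passes the electrons through iron-sulfur clusters to ubiquinone, and a membrane arm, with a proximal and a distal part, pumps protons. The core subunits of the matrix arm carry the flavin and the iron-sulfur clusters, the accessory subunits surround the core, the hydrophobic core subunits of the membrane arm are encoded by mitochondrial DNA, and assembly factors help to build the complex without staying in it. Tissues with a high oxidative rate, brown fat and muscle among them, hold many copies. The N module was represented here by 8 genes, the Q module by 6, the proximal membrane arm by 8, the distal membrane arm by 11 and the Nduf assembly factors by 5. Ndufa4, whose product belongs to cytochrome c oxidase despite its name, and Ndufs5-ps, a pseudogene by its platform symbol whose signal cannot be told apart here from that of a near-identical copy, completed the 40.

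The study normalised its arrays in 2 sets, of which the 6 arrays of 0.05 and 0.5 Gy formed one and the 12 arrays of 0, 1.4, 11.2 and 32.4 Gy the other, and the 75th percentile of the deposited normalised signal differed by 0.44 on the log2 scale between the sets. A difference between 0.05 or 0.5 Gy and the controls in the deposited values therefore crosses separately normalised tables. For this reason every comparison with the controls was also made after quantile normalisation of all 18 non-normalised arrays together (joint normalisation), and levels below are log2 signals from it unless the deposited values are named. A gene is called lower or higher where limma's adjusted p was under 0.01 over all 25697 non-control probes and the ratio was at least 1.5-fold. The raw median signal of the arrays ranged from 86.3 to 115.3 and the number of probes detected (detection p under 0.01) from 10257 to 11328. Of the 40 Nduf genes 39 were detected on all 18 arrays. Ndufs1 was detected on none.

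The labelled tissue was checked against its defining markers. Of 10 measured thyroid follicular genes, Tg, Slc5a5, Duox2, Dio1, Pax8, Nkx2-1 and Foxe1 were detected on 0 of the 18 arrays, Slc26a4 and Iyd on 1 each and Tshr on 10, and the summed signal of the 10 lay between 931 and 998 on every array. Transcripts that mark other tissues were present at high level and differed between the pools. The summed signal of 13 skeletal muscle genes was 3292 to 3403 in the controls and 37557 to 38430 at 32.4 Gy. That of 8 parotid gland genes was 104136 to 116195 in the controls and 1997 to 2029 at 1.4 Gy. In bulk RNA of this kind, fewer cells of a type and less RNA per cell cannot be told apart.

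As the members moved largely together, the promoters of 5 of them are shown: Ndufa3, Ndufb8 and Ndufs8, which had the largest ratios at 0.5 Gy, Ndufa8, which was also called lower at 0.5 Gy and holds an NRF-1 match, and Ndufaf1, the member with the highest ratio at 1.4 Gy. Each window runs from 250 bases before to 50 bases after the RefSeq gene start (mouse build GRCm38.p6), 5′ to 3′ on the gene's strand. They lie at chr7:3617123-3617422 (plus strand, Ndufa3), chr19:44555393-44555692 (minus, Ndufb8), chr19:3912725-3913024 (minus, Ndufs8), chr2:36049289-36049588 (minus, Ndufa8) and chr2:119662785-119663084 (minus, Ndufaf1). Capitals mark a match, on either strand, to the core of a factor known for binding nuclear mitochondrial genes: AAGATGGC for YY1 in Ndufa3 and Ndufb8, CCGGAAG for ETS factors such as GABP in Ndufs8 and Ndufaf1, and, for NRF-1 in Ndufa8, GCGCA and GCGC with any 1 base between them.
Ndufa3: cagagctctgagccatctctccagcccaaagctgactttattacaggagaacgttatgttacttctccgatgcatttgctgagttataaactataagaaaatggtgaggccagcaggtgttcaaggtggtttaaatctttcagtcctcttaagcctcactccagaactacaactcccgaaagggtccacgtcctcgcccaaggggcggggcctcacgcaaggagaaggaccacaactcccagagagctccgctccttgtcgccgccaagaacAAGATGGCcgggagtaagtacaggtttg
Ndufb8: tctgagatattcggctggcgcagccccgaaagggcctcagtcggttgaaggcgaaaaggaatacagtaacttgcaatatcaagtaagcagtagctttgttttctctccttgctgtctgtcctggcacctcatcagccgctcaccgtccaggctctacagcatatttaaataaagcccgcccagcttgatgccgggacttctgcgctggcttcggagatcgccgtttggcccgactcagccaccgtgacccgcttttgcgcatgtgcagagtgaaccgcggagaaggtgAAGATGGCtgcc
Ndufs8: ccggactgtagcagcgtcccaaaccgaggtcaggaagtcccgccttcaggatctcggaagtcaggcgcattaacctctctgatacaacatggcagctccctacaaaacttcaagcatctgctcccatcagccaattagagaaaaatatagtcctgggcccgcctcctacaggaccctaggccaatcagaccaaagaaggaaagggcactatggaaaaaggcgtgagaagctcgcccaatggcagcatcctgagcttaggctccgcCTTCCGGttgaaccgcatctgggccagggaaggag
Ndufa8: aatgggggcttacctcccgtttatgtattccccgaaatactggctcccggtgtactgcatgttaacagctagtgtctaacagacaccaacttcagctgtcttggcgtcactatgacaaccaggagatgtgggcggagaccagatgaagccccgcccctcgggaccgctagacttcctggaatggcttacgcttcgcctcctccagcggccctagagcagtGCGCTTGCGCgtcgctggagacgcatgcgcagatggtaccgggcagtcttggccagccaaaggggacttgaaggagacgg
Ndufaf1: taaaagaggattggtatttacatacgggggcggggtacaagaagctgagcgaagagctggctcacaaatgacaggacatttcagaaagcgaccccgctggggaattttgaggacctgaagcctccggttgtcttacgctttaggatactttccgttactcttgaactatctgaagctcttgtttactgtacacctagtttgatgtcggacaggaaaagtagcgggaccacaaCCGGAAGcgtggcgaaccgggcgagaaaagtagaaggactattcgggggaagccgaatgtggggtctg
With the first base of the gene as 1, the matches stood at 23 to 30 in Ndufa3, 39 to 46 in Ndufb8, 16 to 22 in Ndufs8, -30 to -21 in Ndufa8 and -18 to -12 in Ndufaf1. A promoter was matched for 36 of the 40 members (Ndufa2, Ndufb9, Ndufs1 and Ndufs5-ps had no entry). The NRF-1 core occurred in 7 of the 36 (19.4%, against 5.19% of all 27025 genes with such a window), the YY1 core in 7 (19.4% against 3.19%) and the ETS core in 5 (13.9% against 9.93%), and 18 of the 36 (against 16.4%) held at least 1 of the 3. No match overlapped one of another motif. Not every strongly changed member held a match. Ndufa10, Ndufv1 and Ndufv2, with log2 ratios of -1.15, -0.96 and -0.90 at 0.5 Gy, had none. A match is a description of the letters and not a binding site. The members with and without each core had median log2 ratios of 0.5 Gy to 0 Gy of -0.67 and -0.70 for NRF-1, -0.71 and -0.69 for the ETS core and -0.77 and -0.69 for YY1.

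The first question was how the family stood at each absorbed dose relative to the controls. At 0.5 Gy the Nduf transcripts were lower almost throughout. After joint normalisation 28 of 40 genes, Ndufa4 and Ndufs5-ps among them, were called lower and 0 higher. Of all probes 3.88% were called lower and 3.66% higher, and of detected probes 8.82% were called lower. All 40 ratios were below 0, with a median log2 ratio of -0.69, against -0.01 over detected probes, and 37 of 40 passed the adjusted p alone (10.1% of all probes). At 0.05 Gy the median was -0.35 (detected probes -0.03), 6 of 40 were called lower (background 2.16%) and 25 passed the adjusted p alone (8.78%). There 38 of 40 ratios were below 0. Those of Ndufb2, of the distal membrane arm (0.15), and Ndufaf3 (0.01) were above 0, and neither was called. At 1.4 Gy the family was close to the controls, with a median of 0.07, 26 of 40 ratios above 0 and 0 of 40 called (background 1.19% lower and 1.23% higher). Limma gave an unadjusted p under 0.05 for 4 genes lower and 13 higher there, and the adjusted p alone passed for 2 lower (4.7%) and 3 higher (5.18%). The share of all probes at an unadjusted p under 0.05 was not counted, here or below, so these counts have no background beside them. At 11.2 Gy the median was -0.32 and 3 genes were called lower (0.946%), with 25 past the adjusted p alone (6.45%), and at 32.4 Gy the median was -0.17 and 1 was called lower (0.771%), with 9 past the adjusted p alone (4.23%). The family thus did not follow the order of the doses: it was lowest at 0.5 Gy and highest at 1.4 Gy, with 0.05, 11.2 and 32.4 Gy between them. The order of 0.05 and 11.2 Gy changed with the scaling, since their medians of -0.35 and -0.32 became -0.46 and -0.56 when each array was scaled to its 75th percentile. Each comparison shares the same 3 control arrays.

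**Figure D1:**
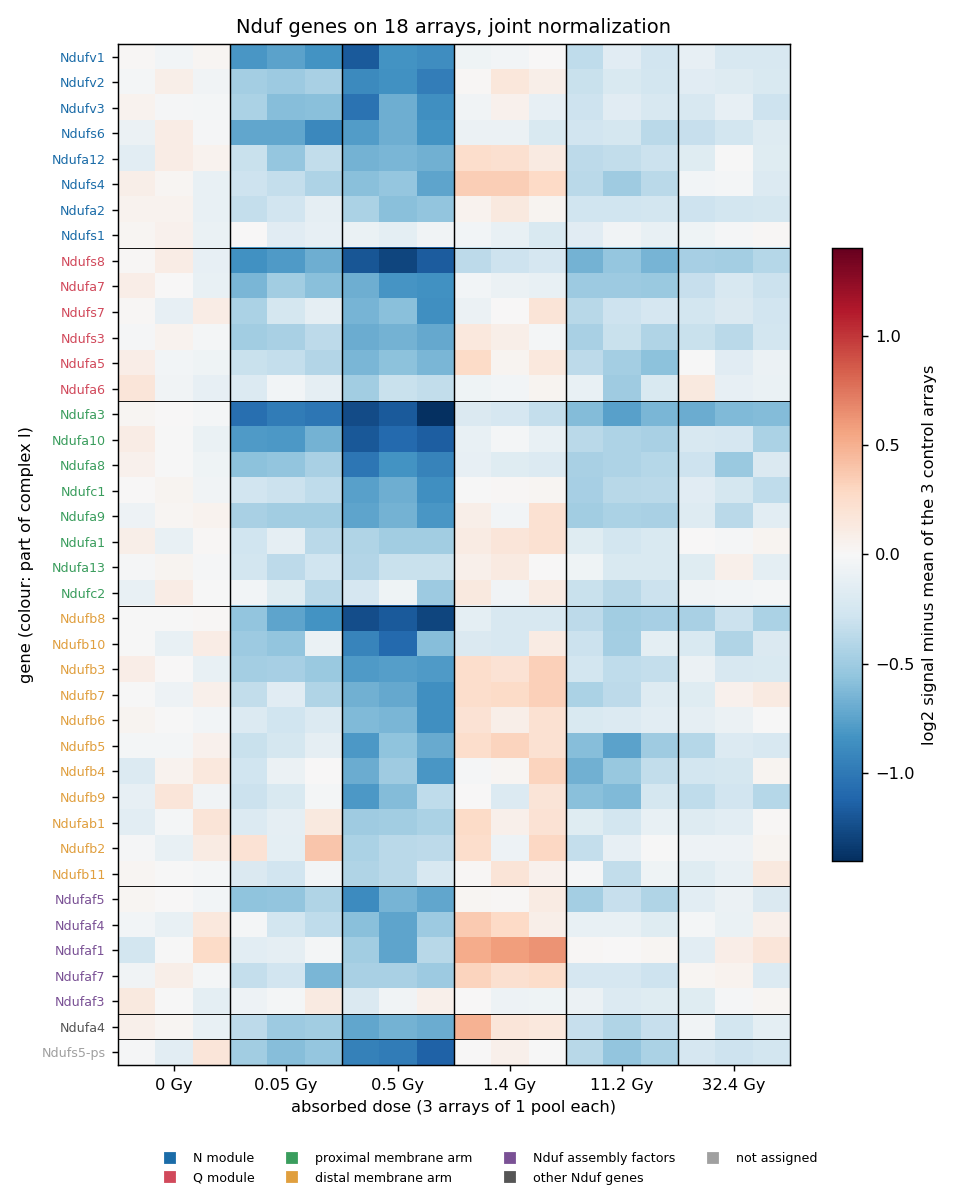
Log2 signal of the 40 Nduf genes (rows, grouped and coloured by part of complex I) on the 18 arrays (columns, 3 per group) minus the mean of the 3 control arrays, after joint normalisation; blue is lower. The columns of 0.5 Gy are blue in nearly every row, those of 0.05 and 11.2 Gy paler, and those of 1.4 Gy near white or red, with 1.4 Gy the highest of the 5 doses in 38 of 40 genes.

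The arrays of a group agreed closely. The median over the 39 detected members, relative to the control mean, was 0.00, -0.00 and -0.03 on the 3 control arrays, -0.33, -0.33 and -0.37 at 0.05 Gy, -0.69, -0.66 and -0.72 at 0.5 Gy, 0.03, 0.04 and 0.11 at 1.4 Gy, -0.36, -0.36 and -0.30 at 11.2 Gy and -0.17, -0.19 and -0.19 at 32.4 Gy. No irradiated group overlapped the controls in this median, and among the irradiated groups only the ranges at 0.05 and 11.2 Gy overlapped each other. Gene by gene, the 3 arrays of 0.5 Gy all lay below the 3 control arrays in 37 of 40 genes (17.8% of all probes), those of 11.2 Gy in 32 (15.4%), those of 0.05 Gy in 29 (16.3%), those of 32.4 Gy in 20 (13.2%) and those of 1.4 Gy in 4 (13%). At 1.4 Gy the arrays lay above all controls in 10 of 40 genes (13.4% of all probes).

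In the deposited values more members were called lower at the 2 lowest doses, the step across the sets included. There 35 of 40 were called lower at 0.05 Gy (15.7% of all probes, 35.6% of detected ones) and 38 of 40 at 0.5 Gy (15.3% and 34.7%), with median log2 ratios of -0.83 and -1.15 where detected probes as a whole had -0.45 and -0.43. All 6 genes called at 0.05 Gy and all 28 called at 0.5 Gy after joint normalisation were also called in the deposited values. At the doses normalised together with the controls the 2 normalisations gave like counts: 0 of 40 called at 1.4 Gy (1.48% of all probes lower), 2 at 11.2 Gy (1.07%) and 0 at 32.4 Gy (0.895%), with medians of 0.06, -0.32 and -0.18. The unadjusted p was under 0.05 for 14 genes at 1.4 Gy, 12 of them higher, and for 21 at 32.4 Gy, all lower. Ndufa3 was the gene called at 11.2 Gy in both.

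**Figure D2:**
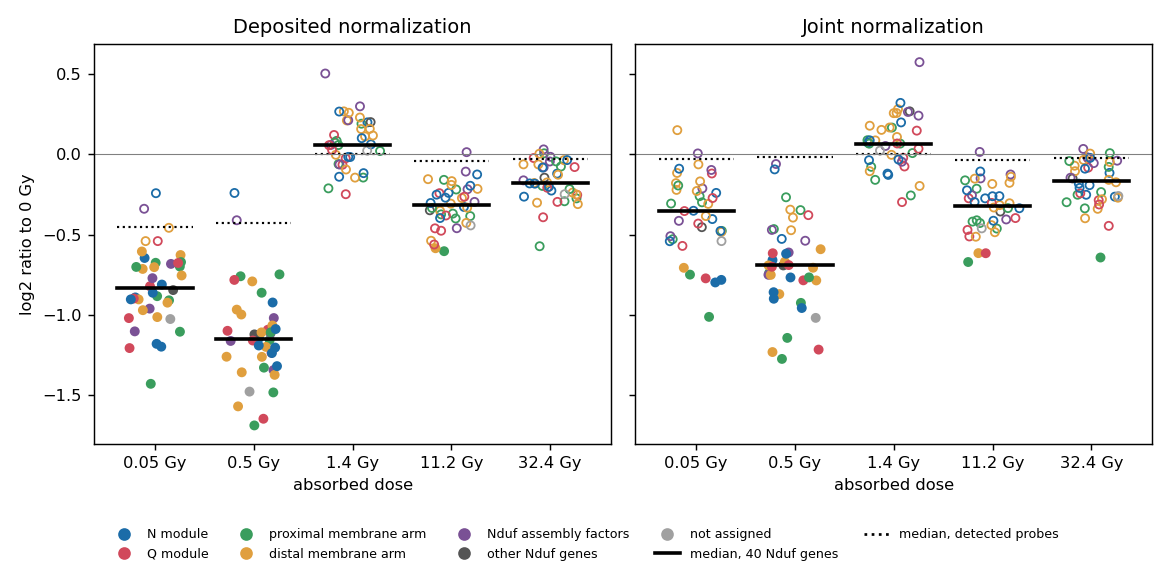
Log2 ratio of each Nduf gene to the controls (points, coloured by part of complex I; filled, called at adjusted p under 0.01 and 1.5-fold) by absorbed dose, from the deposited values (left) and after joint normalisation (right); solid bars are the medians of the 40 genes and dotted bars those of all detected probes. On the left the dotted bars at 0.05 and 0.5 Gy sit at -0.45 and -0.43, on the right near 0, and the solid bars lie below them in both.

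The core subunits of the matrix arm were followed first. Ndufv1, which binds NADH and the flavin, had log2 signals of 13.23, 13.17 and 13.24 in the controls, 12.40, 12.47 and 12.37 at 0.05 Gy, 12.04, 12.38 and 12.35 at 0.5 Gy, 13.15, 13.17 and 13.22 at 1.4 Gy, 12.86, 13.05 and 12.95 at 11.2 Gy, and 13.10, 12.98 and 12.98 at 32.4 Gy. The arrays of both low doses lay well below all others, with log2 ratios of -0.80 ± 0.07 (SE) at 0.05 Gy (limma adjusted p = 6.49e-10) and -0.96 ± 0.07 at 0.5 Gy (adjusted p = 8.2e-12). Its iron-sulfur partner Ndufv2 was at 12.95, 13.07 and 12.93 in the controls and at 12.09, 12.14 and 12.02 at 0.5 Gy, a ratio of -0.90 ± 0.06 (adjusted p = 3.23e-13), while -0.48 at 0.05 Gy did not reach the fold minimum. Ndufs1, the largest iron-sulfur subunit, stayed at 6.35 to 6.63 on all 18 arrays and was not detected, so its ratios are those of a probe not above background.

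In the Q module, Ndufs8, which carries a pair of iron-sulfur clusters, was at 12.26, 12.34 and 12.13 in the controls, 11.40, 11.46 and 11.56 at 0.05 Gy, 11.05, 10.95 and 11.08 at 0.5 Gy, 11.88, 11.96 and 12.005 at 1.4 Gy, 11.58, 11.71 and 11.59 at 11.2 Gy, and 11.78, 11.77 and 11.84 at 32.4 Gy. Every irradiated array was below every control array. It was called lower at 0.05 Gy (-0.77 ± 0.06, adjusted p = 1.16e-10), at 0.5 Gy (-1.22 ± 0.06, 2.33-fold, adjusted p = 3.01e-15) and at 11.2 Gy (-0.62 ± 0.06, adjusted p = 1.9e-08). In the deposited values the ratio at 11.2 Gy was -0.56 and missed the fold minimum. Ndufs7, the subunit with the last iron-sulfur cluster before ubiquinone, and Ndufs3 were called lower at 0.5 Gy alone, at -0.70 ± 0.08 (adjusted p = 5.72e-08) and -0.69 ± 0.06 (adjusted p = 2.25e-10). Ndufs3 was at 11.99 to 12.07 in the controls and 11.31 to 11.36 at 0.5 Gy. Ndufs7 was at 12.30 to 12.51 and 11.55 to 11.82, and neither gene's groups overlapped. Over the 6 core subunits, 5 were called lower at 0.5 Gy (3.88% of all probes) and 2 at 0.05 Gy (2.16%).

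The membrane arm held the 2 largest ratios. Ndufa3, a small accessory subunit of the proximal arm, was at 12.36, 12.33 and 12.30 in the controls, 11.27, 11.35 and 11.32 at 0.05 Gy, 11.07, 11.15 and 10.93 at 0.5 Gy, 12.12, 12.09 and 11.99 at 1.4 Gy, 11.72, 11.56 and 11.68 at 11.2 Gy, and 11.63, 11.71 and 11.71 at 32.4 Gy. It was below the controls on every irradiated array and was the only member called at 4 doses, with ratios of -1.01 ± 0.06 (adjusted p = 1.91e-13), -1.28 ± 0.06 (2.42-fold, adjusted p = 5.72e-16), -0.67 ± 0.06 (adjusted p = 2.16e-09) and -0.64 ± 0.06 (adjusted p = 6.96e-09) at 0.05, 0.5, 11.2 and 32.4 Gy. At 1.4 Gy the ratio of -0.26 passed the adjusted p alone (0.00419). In the deposited values the ratio at 32.4 Gy was -0.57 and just short of the fold minimum of 0.58 on the log2 scale. Ndufb8, an accessory subunit of the distal arm and the member whose probe gave the highest mean signal, was at 13.99, 13.99 and 14.01 in the controls, 13.45, 13.26 and 13.16 at 0.05 Gy and 12.76, 12.82 and 12.72 at 0.5 Gy. The 3 groups did not overlap, and the ratios were -0.71 ± 0.07 (adjusted p = 1.25e-09) and -1.23 ± 0.07 (2.35-fold, adjusted p = 4.29e-15). At 1.4, 11.2 and 32.4 Gy the ratios were -0.20, -0.44 and -0.40, none of them called.

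**Figure D3:**
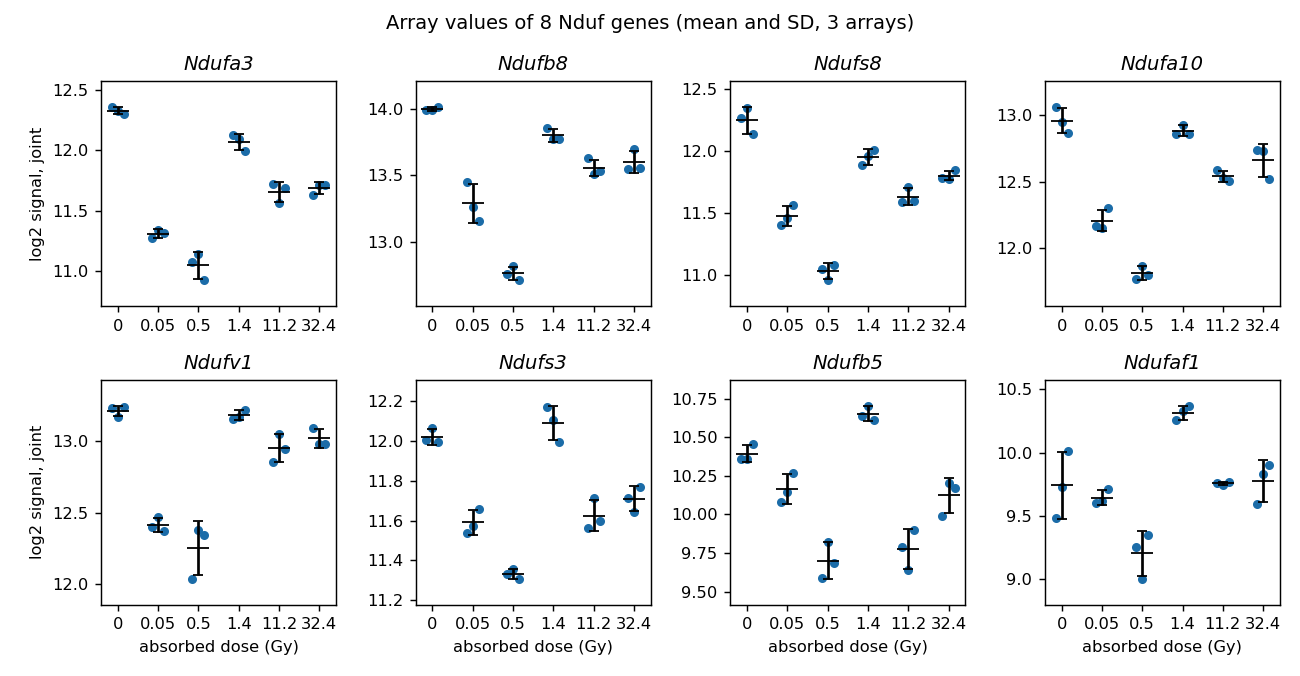
Log2 signal after joint normalisation of 8 Nduf genes on each of the 3 arrays of a group (blue points), with the group mean and SD (black), against absorbed dose; the dose axis is by group and not to scale, and each panel has its own signal axis. In all 8 panels the mean of 0.5 Gy is the lowest and that of 1.4 Gy the highest of the irradiated groups, and for Ndufaf1 the controls spread from 9.48 to 10.01 with 1.4 Gy above them.

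Ndufa10, a proximal subunit with a nucleoside kinase fold, was at 12.87 to 13.06 in the controls, 12.15 to 12.30 at 0.05 Gy and 11.77 to 11.87 at 0.5 Gy, and was called lower at both (-0.75 ± 0.07 and -1.15 ± 0.07, adjusted p = 3.74e-10 and 2.21e-14). Ndufs6, a zinc-binding accessory subunit of the N module, was at 13.41 to 13.60 in the controls and differed little between the 2 low doses, at 12.60 to 12.77 and 12.66 to 12.80 (-0.78 at 0.05 Gy and -0.77 at 0.5 Gy, both called). With Ndufv1, Ndufs8, Ndufa3 and Ndufb8 these made up the 6 genes called at both 0.05 and 0.5 Gy, and 21 genes passed both thresholds at 0.5 Gy alone. Among the latter, the pseudogene Ndufs5-ps had -1.02 at 0.5 Gy, Ndufa8, a proximal subunit facing the intermembrane space, -0.93, Ndufb10, a distal one, -0.87, the N module's Ndufv3 -0.86, the distal Ndufb3 -0.79 and the Q module's Ndufa7 -0.79. Ndufa4, the cytochrome c oxidase subunit, was at 13.56 to 13.74 in the controls and 12.94 to 13.002 at 0.5 Gy and was called lower too (-0.69 ± 0.08, adjusted p = 1.71e-08).

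By part of the complex, the counts called lower at 0.5 Gy were 6 of 8 in the N module, 5 of 6 in the Q module, 5 of 8 in the proximal and 8 of 11 in the distal membrane arm, and 2 of 5 among the assembly factors, with median log2 ratios of -0.71, -0.70, -0.75, -0.69 and -0.54. At 0.05 Gy the counts were 2 of 8, 1 of 6, 2 of 8, 1 of 11 and 0 of 5, and the medians -0.44, -0.39, -0.39, -0.22 and -0.21. Of all probes, 3.88% were called lower at 0.5 Gy and 2.16% at 0.05 Gy. Differences between the parts were not tested. The members least changed at 0.5 Gy were Ndufaf3, a Q module assembly factor with the lowest mean signal of the detected members (-0.06), and Ndufc2 of the proximal arm (-0.27), beside the undetected Ndufs1 (-0.09). The assembly factor Ndufaf1 stood apart at 1.4 Gy: its arrays were at 10.26, 10.33 and 10.37 against 9.48, 9.73 and 10.01 in the controls. The groups did not overlap, and the ratio of 0.58 ± 0.10 (adjusted p = 5.37e-05), the highest of the family at any dose, fell just short of the fold minimum. In the deposited values it was 0.51 (adjusted p = 0.000331), and it was called higher with neqc background correction (0.62), with 75th percentile scaling (0.73) and without control replicate 3. At 0.5 Gy Ndufaf1 reached no more than 9.35 (-0.54, not called after joint normalisation). Ndufaf4, which acts with Ndufaf3 on the Q module, and Ndufaf5, a modifying enzyme of Ndufs7, were called lower at 0.5 Gy at -0.61 and -0.75.

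The further probes of these genes were read separately. There were 13 of them on 9 genes, of which 10 were detected on all 18 arrays, 1, for Ndufb11, on 4 and 2, both for Ndufaf7, on none. At 0.5 Gy all 13 ratios after joint normalisation were below 0 and 6 were called lower (3.88% of all probes). The 4 probes of Ndufs4, an N module subunit, had -0.62, -0.66, -0.62 and -0.58 at 0.5 Gy, and those of Ndufa8 had -0.93 and -1.01. The pair for Ndufa8 differed in sign at 1.4 Gy, at -0.16 and 0.27, and neither was called.

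Next, the doses within a normalised set were compared with each other, where the deposited values need no step across sets. Between 0.5 and 0.05 Gy, 38 of 40 genes were lower at 0.5 Gy, with a median log2 ratio of -0.28 in the deposited values (0.01 over detected probes). Limma called 0 of 40 (0.549% of all probes), 19 passed the adjusted p alone (2.35%), and 32 had an unadjusted p under 0.05. The largest difference was that of Ndufb4 (-0.56), and the ratio of Ndufs6 was 0.01. Between 11.2 and 1.4 Gy, 39 of 40 genes were lower at 11.2 Gy, with a median of -0.39 (-0.06 over detected probes), and 5 were called lower (2.82%). Joint normalisation called 6 (2.3%): Ndufb5 (-0.87 ± 0.07, adjusted p = 1.29e-10), Ndufs4 (-0.74), Ndufa4 (-0.63), Ndufb4 (-0.62), Ndufa5 (-0.62) and Ndufb7 (-0.61). Ndufb5, a distal subunit, was at 10.61 to 10.70 at 1.4 Gy and at 9.64 to 9.90 at 11.2 Gy, with 10.36 to 10.46 in the controls between them. Between 32.4 and 1.4 Gy the deposited median was -0.22 with 0 called (1.07%) and 31 genes at an unadjusted p under 0.05. From 11.2 to 32.4 Gy all 40 ratios were above 0, with a median of 0.13, 0 called (0.292% of all probes lower and 0.564% higher) and 17 at an unadjusted p under 0.05. Over the 5 doses together limma's F test passed for 38 of 40 genes after joint normalisation (25.3% of all probes). In the deposited values it passed for 39 of 40 (50.9%), a count that crosses the separately normalised sets.

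The counts at 0.05 and 11.2 Gy moved with the scaling. With each array scaled to its 75th percentile, 14 genes were called lower at 0.05 Gy (2.57% of all probes), 17 at 11.2 Gy against the controls (2.13%) and 29 at 11.2 against 1.4 Gy (5.43%). The direction of the family's median did not change under any of the scalings tried.

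The probes of the members gave high signals, and the share of probes called rose with signal on these arrays. The mean log2 signal of the 39 detected members ran from 7.002 (Ndufaf3) to 13.50 (Ndufb8) with a median of 11.76, against 7.61 for all detected probes. Signal depends on the probe, so these levels do not rank the transcripts. Over a mean of 11 on the log2 scale, 28.2% of 564 detected probes were called lower at 0.5 Gy with a median log2 ratio of -0.12, and of the 26 Nduf genes there 21 were called with a median of -0.75. Between 9 and 11, 16.9% of 1742 probes and 5 of 6 Nduf genes were called, and under 9, 6.05% of 9008 probes and 2 of 7. The family's median was below that of its level class in all 3.

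**Figure D4:**
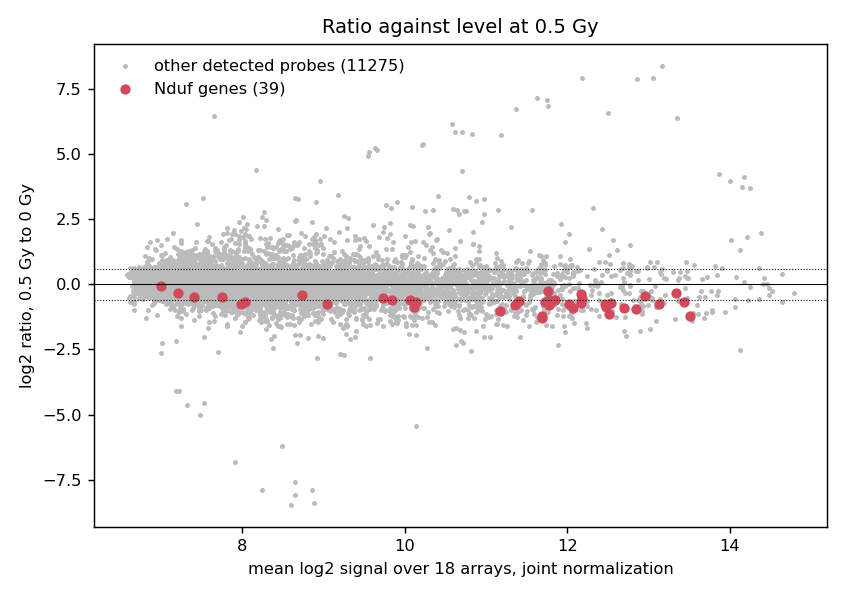
Log2 ratio of 0.5 Gy to 0 Gy against the mean log2 signal over 18 arrays after joint normalisation for every detected probe (grey) and the 39 detected Nduf genes (red); the solid line is 0 and dotted lines are 1.5-fold. The red points all lie below 0, most of them in the brighter range of the plot and 28 of them below the lower dotted line.

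Other genes that serve complex I or feed it were counted from lists. After joint normalisation 3.88% of all probes were called lower at 0.5 Gy. At 0.05 Gy 2.16% were called lower and 2.59% higher. Of 13 measured assembly factors and related genes without the Nduf prefix, 4 were called lower at 0.5 Gy after joint normalisation, namely Foxred1 (-1.32 ± 0.07), Tmem70 (-1.07), Ecsit (-0.92) and Dmac2 (-0.60), and 1 at 0.05 Gy (Foxred1, -0.85). One probe passed as higher at 0.05 Gy, that of Chchd4, which was detected on all 3 arrays there and on none of the controls. The median of the 13 at 0.5 Gy was -0.45. Of 7 measured genes of complex II, which passes electrons from succinate to ubiquinone, 4 were called lower at 0.5 Gy and 1 at 0.05 Gy, with medians of -0.67 and -0.41. The iron-sulfur subunit Sdhb was at -0.98 and the membrane anchor Sdhd at -1.09 at 0.5 Gy. Of the enzymes that supply NADH and make ubiquinone, 12 of 14 were called lower at 0.5 Gy and 6 at 0.05 Gy, with medians of -1.08 and -0.55, led by Ogdh of the citric acid cycle (-1.78 ± 0.09, adjusted p = 4.76e-16) and Idh3a, a subunit of isocitrate dehydrogenase (-1.53).

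Of 11 regulators of mitochondrial biogenesis, 3 were called lower at 0.05 Gy (2.16% of all probes) and 3 at 0.5 Gy (3.88%). The latter were the coactivator Ppargc1b (-1.60 ± 0.07), Tfb2m (-0.83) and Polrmt (-0.76), the last 2 of the mitochondrial transcription machinery. The factors whose cores were searched in the promoters were not called: Nrf1 was at 0.26 and Gabpa at -0.46, and the probe of Yy1 was detected on no array. Ppargc1a, the better known coactivator of the same family, did not follow the Nduf genes. It was called lower at 0.05 Gy (-0.70 ± 0.08) and higher at 11.2 and 32.4 Gy (0.80 and 0.88), with -0.05 at 0.5 Gy and -0.46 at 1.4 Gy, neither called.

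Markers of other tissues were read beside these results. Of 11 measured brown fat genes, 8 were called lower at 0.5 Gy and 6 at 0.05 Gy, 0 at 1.4, 11.2 and 32.4 Gy, with median log2 ratios of -1.39, -0.76, -0.05, -0.27 and -0.08 at 0.5, 0.05, 1.4, 11.2 and 32.4 Gy. The shares of all probes called lower were 3.88%, 2.16%, 1.19%, 0.946% and 0.771% in that order. Ucp1, the uncoupling protein that defines brown fat, was at -1.11 and Cidea at -1.71 at 0.5 Gy. The summed brown fat signal was 59615 to 61154 in the controls, 38622 to 39281 at 0.05 Gy, 20002 to 23066 at 0.5 Gy, 59592 to 66782 at 1.4 Gy, 47766 to 49417 at 11.2 Gy and 55336 to 56819 at 32.4 Gy. After joint normalisation the irradiated groups stood in the same order as in the Nduf median, with 1.4 Gy highest and 0.5 Gy lowest, although 0.05 and 11.2 Gy overlapped in the Nduf median and not in the brown fat sum. The part of brown fat RNA in the lower Nduf values was not tested.

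The 13 skeletal muscle genes did not stand in that order. All 13 were called higher at 0.05, 0.5, 11.2 and 32.4 Gy and 9 at 1.4 Gy, where 2.59%, 3.66%, 1.83%, 1.3% and 1.23% of all probes were called higher, and their summed signal was 3292 to 3403 in the controls, 26724 to 28585 at 0.05 Gy, 20121 to 21110 at 0.5 Gy, 7972 to 8442 at 1.4 Gy, 16356 to 16910 at 11.2 Gy and 37557 to 38430 at 32.4 Gy. Of 9 submandibular gland genes, all 9 were called higher at 0.05, 0.5 and 11.2 Gy, 8 at 32.4 Gy and 5 at 1.4 Gy, where 1 was called lower, and the sum rose from 13172 to 15866 in the controls to 137168 to 153040 at 0.5 Gy. Of 8 parotid gland genes, 6 or 7 were called lower at every dose. In order of dose, 2.16%, 3.88%, 1.19%, 0.946% and 0.771% of all probes were called lower. Of 4 erythrocyte genes, 3 were called lower at 0.05 and at 0.5 Gy and 0 at the other doses. Their summed signal was 29737 to 33895 in the controls, 8989 to 9954 at 0.05 Gy, 5507 to 5870 at 0.5 Gy, 32182 to 33744 at 1.4 Gy, 24383 to 25382 at 11.2 Gy and 31549 to 33094 at 32.4 Gy. The irradiated groups thus stood in the order of the Nduf median after joint normalisation here too, with 1.4 and 32.4 Gy overlapping. The part of these tissues in the Nduf values was not tested either, and with 1 pool per group the dose and the makeup of the pool cannot be told apart.

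**Figure D5:**
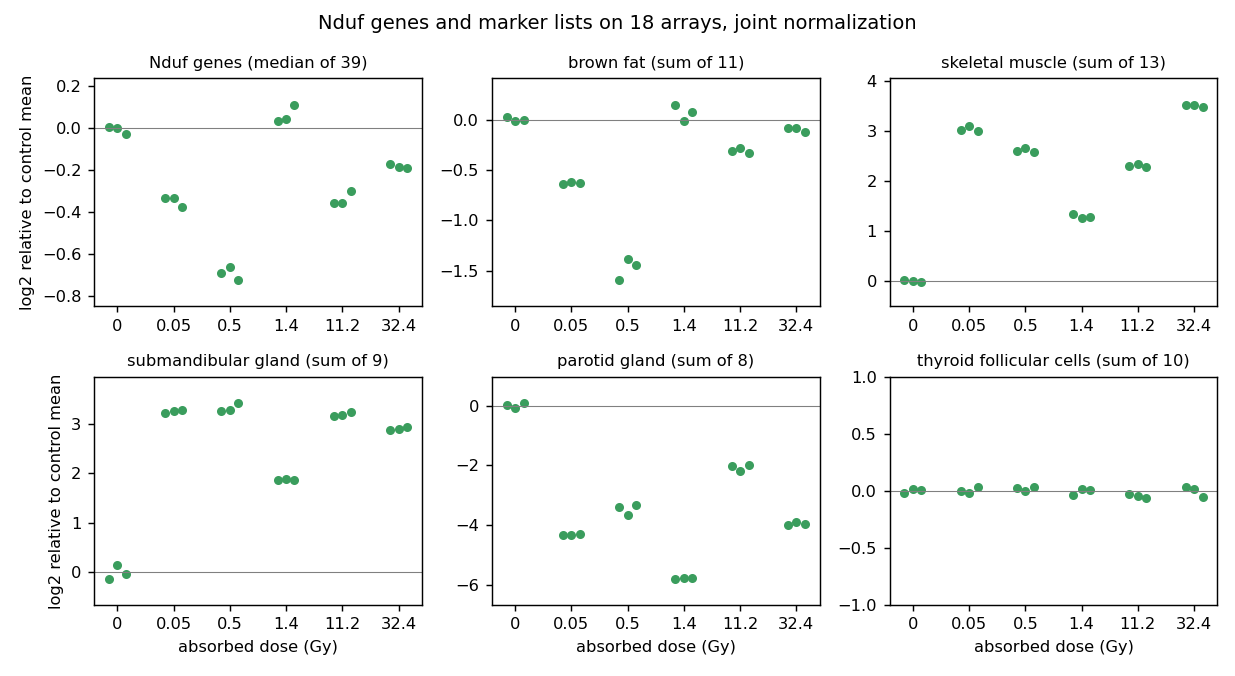
Values on each of the 3 arrays of a group relative to the control mean, on the log2 scale after joint normalisation, by absorbed dose: the median of the 39 detected Nduf genes and the summed signals of 5 marker lists, each panel with its own axis. The irradiated groups stand in the same order in the Nduf and brown fat panels, but 0.05 and 11.2 Gy overlap in the Nduf panel. In the brown fat panel 1.4 Gy overlaps the controls. Muscle and submandibular signals are above the controls at every dose and parotid signals are below. The thyroid follicular signal, whose genes were mostly not detected, is flat.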

How the data were processed

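RNA of pooled mouse thyroids was isolated with a lipid tissue kit, hybridised to Illumina MouseRef-8 arrays and scanned by the authors, and 18 arrays of 6 pools were used. The authors deposited bead-averaged intensity values without normalisation, each with a detection p-value, and quantile-normalised intensity values in 2 sets of arrays. The series value table was identical to the latter and was not needed. No intensity was at or below 0, so log2 was taken with no pseudocount. Joint normalisation was quantile normalisation of all 18 non-normalised arrays. Each probe was fitted over the 6 groups with limma 3.58.1 (R 4.3.3), two-sided, with Benjamini-Hochberg adjustment over 25697 probes, leaving out 815 control probes. Probes were called detected in an array at p under 0.01, and the 11314 detected probes had this on every array of some group. Genes were named from the platform table, in which 23978 probes had 1 symbol. The number of arrays limits the precision.

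The members, the gene lists and the tests were chosen with earlier results of these data known. The text names the core subunits of the matrix arm, the 12 detected genes with the largest joint ratio at any dose, members called at 0.05, 11.2 or 32.4 Gy or between doses, the highest and lowest of each comparison, and Ndufa4. Alternatives were other normalisations (limma's neqc background correction with quantile normalisation, and 75th percentile scaling), fits on the 2 groups compared or on detected probes, another probe per gene, no fold minimum, the replicate number as a block, and leaving out each array. The same numbered arrays of different groups deviated together only weakly over 45 pairs. Correlations ran from -0.03 to 0.28 (median 0.08) in the deposited and from -0.04 to 0.29 (median 0.09) in the joint values. Those over 0.1 numbered 13 in the deposited and 18 in the joint values. The numbers were not taken to pair the arrays, and no 2 arrays held identical values. Promoters are from RefSeq and were searched on both strands with Python 3.11.15. The fit was also tested on data simulated from the jointly normalised values.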

Additional observations from a re-analysis of the deposited data

How the results depend on the processing

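Of the Nduf counts after joint normalisation, that at 0.5 Gy stayed within 1.5 times of 28 in every alternative tried. The count at 0.05 Gy in the deposited values was 35, and it was 6 with joint normalisation, 8 with neqc and 14 with 75th percentile scaling. At 1.4 Gy, with 0 called, neqc and 75th percentile scaling each gave 1 in both normalisations, and the adjusted p alone gave 2 in the deposited and 5 in the joint values. At 11.2 Gy the deposited count of 2 became 4 with neqc, 17 with percentile scaling and 22 without the fold minimum, and the joint count of 3 became 17 and 25 with the last 2. At 32.4 Gy the deposited count of 0 became 1 with joint normalisation, neqc or percentile scaling and 6 without the fold minimum, and the joint count became 9 without it. The joint count at 0.05 Gy was 14 with percentile scaling and 25 without the fold minimum. For 0.5 against 0.05 Gy the count of 0 became 3 with neqc, 1 with percentile scaling, 1 with the second probe and 19 without the fold minimum. For 11.2 against 1.4 Gy, 5 became 11, 29 and 27 with neqc, percentile scaling and no fold minimum. For 32.4 against 1.4 Gy, 0 became 6 and 12 with the last 2, and for 32.4 against 11.2 Gy 0 became 3 without the fold minimum. Dropping the fold minimum raises counts by its construction; the cause of the other moves was not tested. The share of all probes called lower moved too. In order of dose, with 1.4 Gy left out, it was 5.11%, 7.19%, 2.68% and 1.85% with neqc and 2.57%, 4.32%, 2.13% and 0.899% with percentile scaling. Without the fold minimum it was 37.8%, 35.8%, 6.54% and 4.21% in the deposited and 8.78%, 10.1%, 6.45% and 4.23% in the joint values. The call at 1.4 Gy with neqc and percentile scaling was Ndufaf1, higher, as were 2.7% and 1.87% of all probes. The adjusted p alone passed there for 2 higher in the deposited values (5.27%), and for 3 higher between 32.4 and 11.2 Gy (2.16%). For 0.5 against 0.05 Gy the share called lower was 1.2%, 0.56% and 2.35% with neqc, percentile scaling and no fold minimum, for 11.2 against 1.4 Gy 5.55%, 5.43% and 10%, and for 32.4 against 1.4 Gy 2.54%, 2.48% and 6.49%. With percentile scaling the median log2 ratio of all probes was -0.15 at 0.5 Gy, -0.11 for 0.5 against 0.05 Gy and 0.14 for 11.2 against 1.4 Gy, where joint normalisation gave -0.01, -0.00 and -0.01.

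Leaving out each array in turn gave 34 to 36 called at 0.05 Gy, 38 at 0.5 Gy, 0 to 1 at 1.4 and at 32.4 Gy, 1 to 3 at 11.2 Gy, 0 to 1 for 0.5 against 0.05 Gy, 4 to 7 for 11.2 against 1.4 Gy, 0 for the other 2 comparisons and 38 to 39 for the F test in the deposited values. In the joint values it gave 6 to 7, 26 to 28, 0 to 1, 2 to 5 and 1 in the order of the doses, and 36 to 38 for the F test. The joint count at 11.2 Gy was 5 without 11.2 Gy replicate 3, and the deposited one 1 without 11.2 Gy replicate 1, 11.2 Gy replicate 2 or control replicate 2. The call at 1.4 Gy appeared without control replicate 3 in both normalisations and without 1.4 Gy replicate 1 in the joint values, the deposited call at 32.4 Gy without 32.4 Gy replicate 2, 32.4 Gy replicate 3 or control replicate 3, and that for 0.5 against 0.05 Gy without any array of these groups except 0.5 Gy replicate 1. With the replicate number as a block the counts were unchanged, at 35, 38, 0, 2 and 0 in the deposited and 6, 28, 0, 3 and 1 in the joint values. The block changed no call of the core subunits, the 12 genes with the largest joint ratio or Ndufa4.

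Signs were followed for the core subunits, the 12 genes with the largest joint ratio and Ndufa4, and not for every member named above. Among these, sign changes were confined to ratios that were not called. With percentile scaling they were Ndufv1 (0.000819), Ndufa10 (0.00367), Ndufb10 (0.0176), Ndufv3 (0.0581) and Ndufa7 (0.134) at 1.4 Gy, and the undetected Ndufs1 at 11.2 (0.00245) and 32.4 Gy (0.0175). Ndufaf1, outside that check, had joint ratios of 0.02 and 0.03 at 11.2 and 32.4 Gy. With percentile scaling it was below 0 at both. With the second probe Ndufa8 (0.25 deposited, 0.27 joint) and Ndufv3 (0.11 and 0.13) changed sign at 1.4 Gy. Leaving out each array, the ranges that crossed 0 in the deposited values at 1.4 Gy were -0.038 to 0.000514 for Ndufv1, -0.0385 to 0.083 for Ndufs7, -0.0491 to 0.106 for Ndufs5-ps and -0.0633 to 0.0269 for Ndufv3, with -0.0912 to 0.00129 for Ndufs1 at 32.4 Gy. In the joint values they were -0.0374 to 0.0966 for Ndufs7, -0.0504 to 0.108 for Ndufs5-ps, -0.0852 to 0.0058 for Ndufv3 and -0.0681 to 0.00959 for Ndufs1. Ndufs1, below detection on every array, gave no value with detected probes only.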
